A study of Danio rerio with 10 samples.

Results

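The genes described here are 10 zebrafish genes of the neuronal cytoskeleton and of growing axons. They were chosen by gene name, and each name belonged to a single Ensembl gene among the 25911 genes counted. In order of role they are the neurofilament genes nefla, nefma and nefmb, the internexin gene inaa, the tau genes mapta and maptb, the growth cone gene gap43, the stathmin genes stmn2a and stmn2b, and the alpha-tubulin gene tuba1c. All 10 passed the filter on low counts, as did 23039 genes in all.

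Neurofilaments are intermediate filaments that fill the axons of neurons, above all the long and thick ones. Their building blocks include light and medium subunits and alpha-internexin. Tau binds along the microtubules of the axon, whose walls are made of alpha- and beta-tubulin. Gap43 lies under the membrane of the growth cone, the moving tip of a growing axon, and stathmin 2 binds free tubulin there. In mammals internexin and gap43 are used early in axon growth, while neurofilament subunits build up as an axon matures. In fish embryos the first neurons with long axons are sensory neurons, motor neurons and hindbrain neurons that project to the spinal cord, whereas many neurons of the retina, tectum and cerebellum are born later.

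RNA was measured in whole larvae of the AB background at 3 days post fertilization (dpf), from incrosses of can4 heterozygotes. The 5 can4-/- pools came from larvae homozygous for a loss-of-function mutation of top2a, the gene of topoisomerase IIα, and the 5 WT pools from their wild-type siblings, with 9 larvae genotyped and then pooled per library. Maternal top2a mRNA can persist in mutant embryos up to the age sampled, so the depletion may be partial, and homozygous mutants do not survive. Counts assigned to genes ranged from 29281449 to 45544046 per library. Normalized counts below are counts divided by the effective library size (edgeR's TMM scaling) and multiplied by its mean over the 10 pools. Genotypes were compared with edgeR's quasi-likelihood test. A gene was called higher or lower in can4-/- when its p, adjusted by Benjamini-Hochberg over all genes tested, was under 0.05. Errors of fold changes are given as the standard error (SE).

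As a check of the labels, top2a had a normalized count of 8651 ± 248 in WT and 802 ± 311 in can4-/- (SD, n = 5 pools each). A panel of 29 genes used by most neurons fell as a sum in the same pools, though not every gene in it fell. Its summed level was 3683 ± 92.4 CPM (counts scaled to a common effective library size) in WT and 1831 ± 88.5 in can4-/- (SD, n = 5). The log2 difference was -1.01 (p = 0.00794 in a two-sided exact permutation test, for which no lower p is possible with these group sizes). Markers of other cells also moved with genotype. All 12 photoreceptor markers were lower, and their sum was 989 to 1561 CPM in WT and 15.2 to 34.2 in can4-/-. Of 13 progenitor markers 10 were lower and 2 higher (sums 1322 to 1445 against 988 to 1169 CPM). Muscle markers were higher in 12 of 13 (14858 to 18109 against 21949 to 27892 CPM), skin markers in 8 of 10 (17618 to 21640.3 against 26244 to 29554 CPM) and macrophage markers in 7 of 10 (662 to 792 against 2021 to 2992.5 CPM). Most of the macrophage sum was apoeb, at 23230.5 normalized counts in WT and 81474 in can4-/- (log2 fold change 1.81). marco stood at 2.56, mpeg1.1 at 0.35 and csf1ra at 0.37, while lcp1 was lower at -0.31 and 2 markers did not pass. In glia the sums overlapped between genotypes while single markers moved in opposite directions. For myelinating glia they were 189 to 220.5 against 183 to 206 CPM (2 higher and 6 lower of 9), with mbpa at a log2 fold change of -2.84 and erbb3b at 0.83. For radial glia they were 1497 to 1549 against 1446 to 1546 CPM (3 higher and 6 lower of 10), with slc1a2b at -1.81 and slc1a3b at 1.72. For all tested genes the shares called were 36.3% higher and 36.9% lower. No marker of any list was at 0 in all pools. The part of these other cells in the results below was not tested. In whole larvae, fewer cells of a type and less RNA per cell cannot be told apart.

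Axon cytoskeleton genes went in different directions in can4-/- larvae. The neurofilament genes nefla and nefmb rose, nefma did not pass the test, and internexin, both tau genes, gap43, both stathmin 2 genes and tuba1c fell. Thus 2 of the 10 were called higher and 7 lower from edgeR, where 36.3% of all tested genes were called higher, 36.9% lower and 73.2% in either direction. In 7 genes the can4-/- pools all lay below the WT pools (31.4% of all tested genes did), and in nefla they all lay above (29.4% of all tested genes did). The median log2 fold change of the 10 was -0.89, against 0.00 over all tested genes. With library totals in place of TMM every log2 fold change shifted by about -0.17. All 9 calls passed with that scaling as well, while nefma turned from 0.05 to -0.13 and again did not pass.

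**Figure D1:**
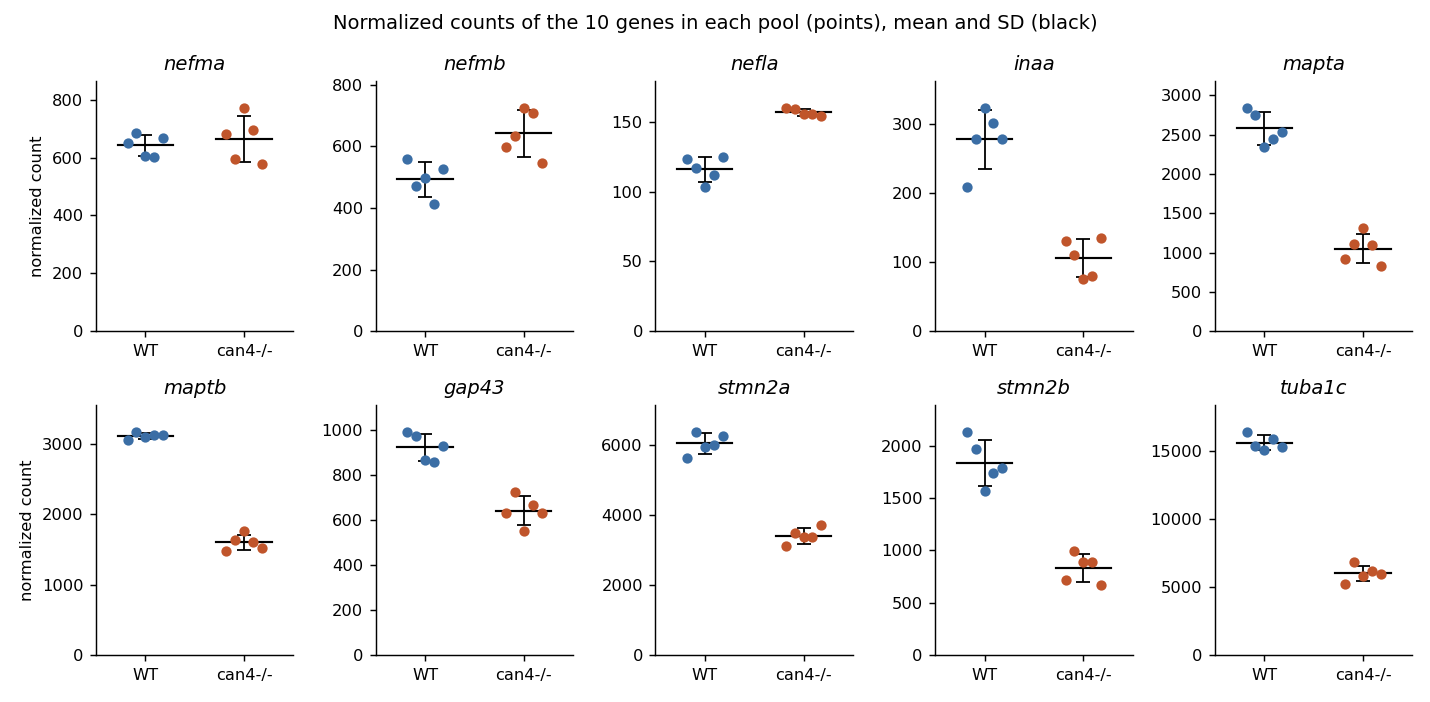
Normalized counts of the 10 genes in each of 5 WT and 5 can4-/- pools. Each point is a pool, the black line is the mean and the bar the SD, and every axis starts at 0. The can4-/- points lie above the WT points for nefla, overlap with them for nefma and nefmb, and lie below them for the other 7 genes.

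The light neurofilament subunit gene nefla (ENSDARG00000057568) is on chromosome 21 of GRCz11 from 19008168 to 19011040. Its normalized counts in WT replicates 1 to 5 were 123, 117, 103, 112 and 125, and in can4-/- replicates 1 to 5 they were 160.0, 159, 156, 155 and 154. The can4-/- pools were very even and all stood above the highest WT pool. The mean went from 116 ± 8.90 to 157 ± 2.53 (SD, n = 5), a log2 fold change of 0.44 (SE 0.086, edgeR adjusted p = 0.000367). With library totals it was 0.26 (edgeR adjusted p = 0.0135). nefla is the least counted of the genes that rose, with 109 to 165 raw counts per pool.

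The medium subunit gene nefmb (ENSDARG00000043697, chromosome 8, 6863462 to 6866890) had normalized counts of 558, 470.1, 497, 412 and 525 in WT. In can4-/- they were 599, 633, 725, 708 and 545. The genotypes overlapped only in that WT replicate 1 stood above can4-/- replicate 5. The mean rose from 492 ± 55.5 to 642 ± 75.1 (SD, n = 5), a log2 fold change of 0.38 (SE 0.091, edgeR adjusted p = 0.00181). With library totals the value was 0.21 and passed narrowly (edgeR adjusted p = 0.0451).

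Its paralog nefma (ENSDARG00000021351, chromosome 21, 19013850 to 19018455) had 650.0, 686, 607, 602 and 668 normalized counts in WT. In can4-/- the values were 682, 596, 772, 695 and 579. The highest and the lowest of all 10 pools were both can4-/-, and the groups overlapped widely. The log2 fold change was 0.05 (SE 0.076, edgeR adjusted p = 0.572), with a 95% interval from -0.13 to 0.23.

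These subunit genes lie in neighboring light and medium pairs. nefla and nefma are 2809 bases apart on chromosome 21, and nefmb is 6962 bases from neflb, another light subunit gene, on chromosome 8. neflb had 585 ± 60.2 normalized counts in WT and 794 ± 46.6 in can4-/- (SD, n = 5), a log2 fold change of 0.44 (SE 0.070, edgeR adjusted p = 6.00e-05). The annotated span of the ribosomal protein gene rpl17 runs from 18997503 to 19067517 on chromosome 21 and holds nefla and nefma. rpl17 had 16849 normalized counts in WT and 19201.5 in can4-/-, far more than either gene (log2 fold change 0.19, SE 0.040). It lies on the same strand as nefla and on the opposite strand to nefma. The sources used here do not say how reads in the shared span were counted, so the values of nefla and nefma carry this uncertainty.

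inaa (ENSDARG00000011862), which encodes an alpha-internexin, lies on chromosome 13 from 28675686 to 28681036. Its normalized counts were 209, 278, 324, 301 and 278 in WT and 131, 109.9, 76.3, 80.4 and 135 in can4-/-. WT replicate 1 was the lowest WT pool and still stood well above every can4-/- pool. The mean fell from 278 ± 42.8 to 107 ± 27.5 (SD, n = 5), a log2 fold change of -1.39 (SE 0.16, edgeR adjusted p = 3.40e-06). The largest falls of the 10 genes were those of inaa, tuba1c and mapta (-1.29, SE 0.10). They did not differ beyond their standard errors. Only 5.65% of all tested genes had a log2 fold change as low as that of inaa or lower. An antisense gene overlaps inaa, and the counting is not stated to use strand, so its value is uncertain in that respect. The second internexin gene, inab, changed less, from 1169 ± 64.4 to 845 ± 24.7 (SD, n = 5; log2 fold change -0.47, SE 0.046). prph, which encodes peripherin, a filament protein of neurons with axons outside the brain, stood at -0.29 (SE 0.044).

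Of 12 other intermediate filament genes, 3 were higher, 6 lower and 3 did not pass, with a median log2 fold change of -0.25. The shares of all tested genes were 36.3% higher and 36.9% lower. The list is not limited to filaments of neurons, progenitors and glia. It also holds sync, which did not pass, and the nuclear lamin genes lmnb1 and lmnb2. Both lamin genes were called lower, at -0.46 (SE 0.053) and -0.38 (SE 0.046). Besides neflb the higher ones were vim, which encodes vimentin, at 0.81 (SE 0.047), and nes, which encodes the progenitor filament nestin, at 0.28 (SE 0.059). gfap, the filament gene of glia, fell by 0.60 on the log2 scale (SE 0.064).

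The tau gene mapta (ENSDARG00000089314) lies on chromosome 12 from 4733892 to 4781821. It had 2841, 2754, 2338, 2451 and 2537 normalized counts in WT, and 915, 1105, 1308, 1102 and 829 in can4-/-. Every can4-/- pool was far below every WT pool, and the can4-/- pools were the more uneven ones. The mean fell from 2584 ± 209.7 to 1052 ± 187 (SD, n = 5), a log2 fold change of -1.29 (SE 0.10, edgeR adjusted p = 5.52e-08).

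For maptb (ENSDARG00000087616, chromosome 3, 22158024 to 22216771), the other tau gene, the normalized counts were 3058, 3181, 3106, 3126 and 3134 in WT. They were 1482, 1632, 1766, 1602 and 1525 in can4-/-. The WT pools differed by very little, with a coefficient of variation of 1.43%, the lowest of the 10 genes in WT. The mean fell from 3121 ± 44.7 to 1601 ± 109 (SD, n = 5), a log2 fold change of -0.96 (SE 0.046, edgeR adjusted p = 4.91e-10).

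Most other genes that bind or regulate microtubules in neurons fell as well. Of 40 tested, 5 were higher, 30 lower and 5 did not pass, where 36.3% of all tested genes were higher and 36.9% lower. The median log2 fold change of the 40 was -0.71. map2, which encodes the microtubule-associated protein of dendrites, fell from 969 ± 109 to 424 ± 60.9 (SD, n = 5; log2 fold change -1.19, SE 0.10), close to mapta in size. The collapsin response mediator genes crmp1, dpysl4 and dpysl3, which link guidance cues to the growth cone, stood at -1.97 (SE 0.070), -1.36 (SE 0.076) and -1.10 (SE 0.045). On the other side were map7d1a at 0.84 (SE 0.051) and ndel1b, a partner of dynein, at 0.53 (SE 0.047).

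gap43 (ENSDARG00000099744, chromosome 15, 47161917 to 47176151) had normalized counts of 993, 971, 867, 858 and 929 in WT. In can4-/- it had 629.9, 726, 551.6, 668 and 632. The groups did not overlap, but the fall was the smallest among the genes that fell. Its mean went from 924 ± 60.3 to 641 ± 63.4 (SD, n = 5), a log2 fold change of -0.52 (SE 0.070, edgeR adjusted p = 1.14e-05). basp1, which encodes a growth cone protein that acts beside gap43 in mammals, fell from 6498 ± 251 to 2619 ± 187 (SD, n = 5; log2 fold change -1.31, SE 0.052).

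Of 61 other growth cone and axon outgrowth genes, 5 were higher, 48 lower and 8 did not pass, with a median log2 fold change of -0.84. Over all tested genes 36.3% were called higher and 36.9% lower. The largest falls with at least 100 normalized counts were in plppr5a, at -1.92 (SE 0.076), and plppr5b, at -1.87 (SE 0.13), which encode membrane proteins related to lipid phosphatases. Those that rose were led by cotl1 and tmsb1, at 1.21 (SE 0.048) and 0.74 (SE 0.049). They encode actin-binding proteins that are made in many cell types besides neurons.

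stmn2a (ENSDARG00000033234) lies on chromosome 16 from 16165029 to 16182319. Its normalized counts were 5631, 6391, 5954, 6013 and 6273 in WT and 3102, 3484, 3377, 3364 and 3725 in can4-/-. The highest can4-/- pool stood well under the lowest WT pool. The mean fell from 6052 ± 297 to 3410.4 ± 225 (SD, n = 5), a log2 fold change of -0.83 (SE 0.052, edgeR adjusted p = 6.28e-09).

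Its paralog stmn2b (ENSDARG00000070537, chromosome 19, 31771270 to 31790551) had 2137, 1969.8, 1566, 1736 and 1787 normalized counts in WT, and 715, 997, 894, 889 and 669 in can4-/-. WT replicate 1 was the highest and WT replicate 3 the lowest of the WT pools, and no can4-/- pool reached them. The mean fell from 1839 ± 220.3 to 833 ± 137 (SD, n = 5), a log2 fold change of -1.14 (SE 0.11, edgeR adjusted p = 3.47e-07).

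The other stathmin genes differed among themselves. stmn1a, whose product is made in dividing cells and young neurons, fell from 4485 ± 149 to 1709 ± 168 (SD, n = 5; log2 fold change -1.39, SE 0.060), and stmn1b stood at -1.26 (SE 0.052). stmn4, a stathmin gene of neurons, was at 0.08 (SE 0.070) and did not pass the test (edgeR adjusted p = 0.340). stmn4l was higher at 0.24 (SE 0.052), and with library totals no stathmin gene was called higher. In all, 1 of these 5 genes was higher, 2 were lower and 2 did not pass, where 36.3% of all tested genes were higher and 36.9% lower.

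The alpha-tubulin gene tuba1c (ENSDARG00000055216, chromosome 23, 35690657 to 35694461) had 16409.5, 15314, 15066, 15837 and 15262 normalized counts in WT. In can4-/- it had 5237, 6797, 5769, 6153 and 5961. The can4-/- replicate 2 pool was the highest of its group and can4-/- replicate 1 the lowest, both far under WT. The mean fell from 15578 ± 546 to 5983 ± 569 (SD, n = 5), a log2 fold change of -1.38 (SE 0.061, edgeR adjusted p = 2.18e-10).

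tuba1c has close copies nearby, tuba1a at a distance of 14268 bases and tuba1b at 19095 bases, and similar copies may share reads. tuba1a fell from 12639 ± 557 to 8365 ± 580 (SD, n = 5; log2 fold change -0.60, SE 0.051). tuba1b was at -0.28 (SE 0.13) and did not pass (edgeR adjusted p = 0.0674). Of 17 other tubulin genes, 5 were higher, 7 lower and 5 did not pass, with a median log2 fold change of 0.03. These counts are near the shares of all tested genes called higher (36.3%) and lower (36.9%). The neural beta-tubulin gene tubb5 fell by 0.84 on the log2 scale (SE 0.056), and tuba2 by 1.21 (SE 0.050). tubb6 and tuba8l rose, by 2.26 (SE 0.070) and 0.84 (SE 0.060).

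**Figure D2:**
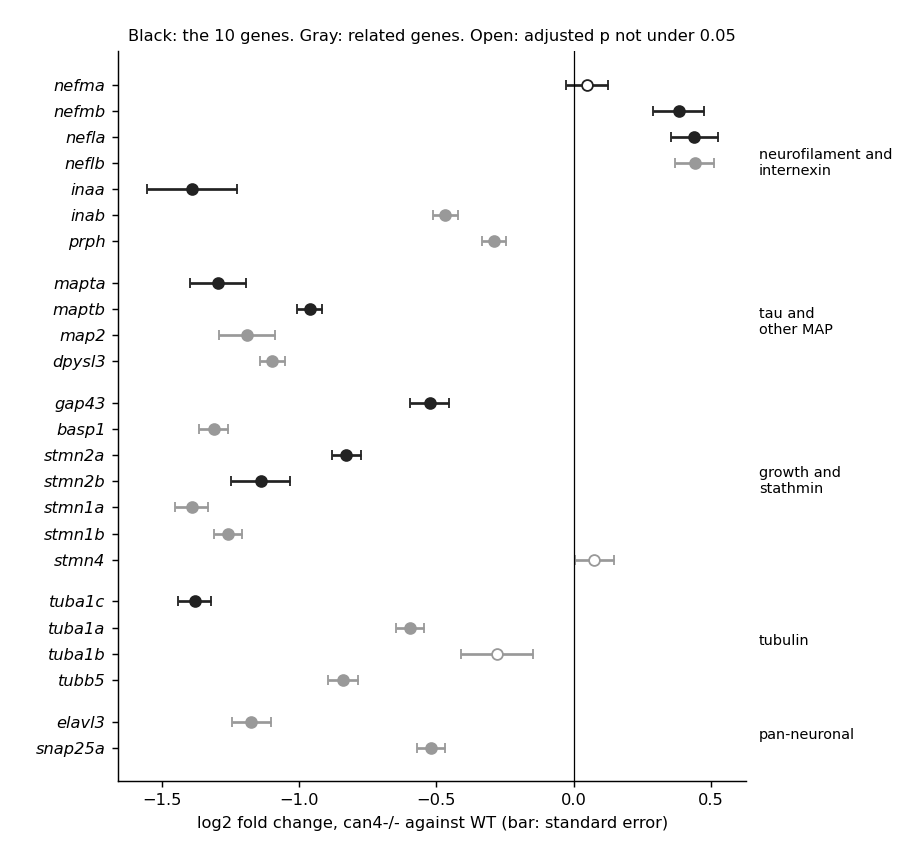
Log2 fold change in can4-/- against WT, with its standard error, for the 10 genes (black) and for related genes (gray), grouped by role. Filled points passed an adjusted p under 0.05 in edgeR and open points did not. nefla, nefmb and neflb lie right of 0, nefma, stmn4 and tuba1b are open, and the other genes lie left of 0.

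Paralogs were compared within each pool, where the ratio of their counts does not depend on library scaling. The duplicated genes gave 3 such ratios. Of the raw counts of nefma and nefmb together, nefma took 56.7% ± 2.54 in WT and 50.9% ± 1.88 in can4-/- (SD, n = 5). In WT replicates 1 to 5 the shares were 53.8%, 59.3%, 55.0%, 59.4% and 56.0%, and in can4-/- they were 53.3%, 48.5%, 51.6%, 49.5% and 51.5%. The pools did not overlap, although WT replicate 1 and can4-/- replicate 1 came close to each other. As a log2 ratio of nefma to nefmb the difference was -0.34 (SE 0.083, two-sided exact permutation test, p = 0.00794, adjusted over the 3 ratios p = 0.0119).

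mapta took 45.2% ± 2.07 of the tau counts in WT and 39.4% ± 2.82 in can4-/- (SD, n = 5). By pool its share was 48.2%, 46.4%, 42.9%, 43.9% and 44.7% in WT, and 38.2%, 40.4%, 42.5%, 40.8% and 35.2% in can4-/-. Each can4-/- pool lay below each WT pool, with can4-/- replicate 3 just under WT replicate 3. The log2 ratio of mapta to maptb differed by -0.35 (SE 0.094, two-sided exact permutation test, p = 0.00794, adjusted p = 0.0119). Thus mapta fell more than maptb in the same pools.

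stmn2a took 76.7% ± 2.55 of the stathmin 2 counts in WT and 80.4% ± 2.75 in can4-/- (SD, n = 5). The WT shares were 72.5%, 76.4%, 79.2%, 77.6% and 77.8%, the can4-/- shares 81.3%, 77.7%, 79.1%, 79.1% and 84.8%, and the groups overlapped. The log2 ratio of stmn2a to stmn2b differed by 0.32 (SE 0.15) and did not pass (two-sided exact permutation test, p = 0.0556, adjusted p = 0.0556). It passed before adjustment without WT replicate 3 (p = 0.0238) or without can4-/- replicate 2 (p = 0.0317, exact permutation tests). In the other direction, leaving out a single pool raised p to as much as 0.151 (exact permutation test).

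**Figure D3:**
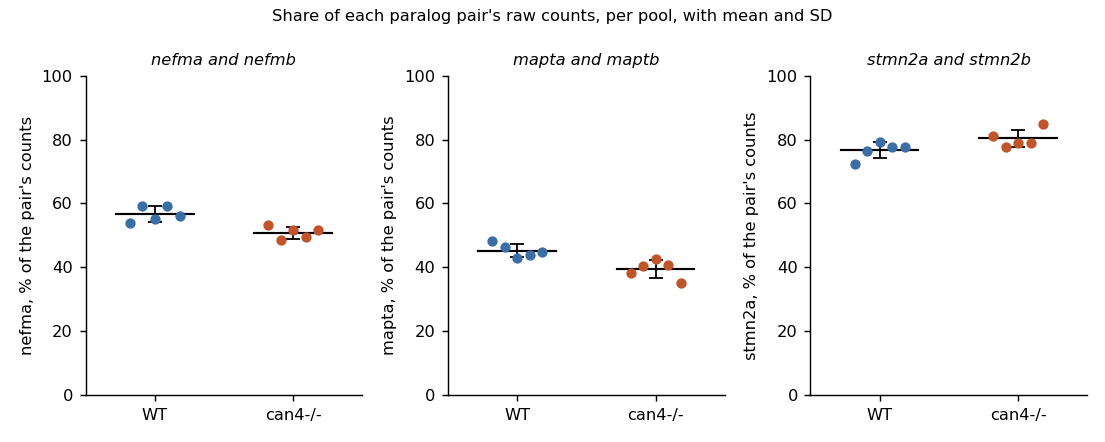
Share of each paralog pair's raw counts taken by nefma, mapta and stmn2a in each pool, in percent, with the mean and SD of 5 pools. The can4-/- shares lie below the WT shares for nefma and mapta, and the groups overlap for stmn2a.

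The level of each gene was also set against the pan-neuronal panel of the same pool, which includes elavl3, snap25a and synaptic vesicle genes. The panel itself fell by a log2 difference of -1.01, so that a gene that does not change stands about that much higher relative to it, and the median over all tested genes on this scale was 1.01. When the panel sum was the scaling, edgeR called 82.6% of all tested genes higher and 7.29% lower. A gene near 0 on this scale fell about as much as the panel. The panel's own genes also spread around its sum. Their log2 fold changes with TMM ran from -3.40 (stxbp1b) to 0.25 (zgc:65851), with quartiles of -1.19 and -0.74. Of the 10 ratios, whose p-values are not adjusted here, each was tested over the 5 pools of each genotype with a two-sided exact permutation test.

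Neurofilament genes stood above the panel. The log2 ratio to the panel rose by 1.45 for nefla (SE 0.065), by 1.39 for nefmb (SE 0.10) and by 1.05 for nefma (SE 0.082), each with p = 0.00794 in the exact test and no overlap between genotypes. nefma thus lay near the median of all tested genes on this scale. The panel's fall alone can give a gene that does not change this lowest p and full separation. nefma, with an edgeR adjusted p of 0.572 under TMM, is such a case. These p-values therefore do not set the neurofilament genes apart from other genes. How many of all tested genes lack overlap on this scale was not computed. gap43 rose by 0.48 (SE 0.089, exact p = 0.00794), and stmn2a by 0.18 (SE 0.044, exact p = 0.00794), so that both fell less than the panel sum. Some panel genes fell by like amounts with TMM. Among them were snap25a (log2 fold change -0.52, as for gap43) and elavl4 (-0.79, against -0.83 for stmn2a).

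The tau gene maptb followed the panel closely. Its log2 ratio was -5.35, -5.39, -5.37, -5.38 and -5.38 in WT, and -5.33, -5.34, -5.26, -5.35 and -5.37 in can4-/-. The groups overlapped, and the difference was 0.04 (SE 0.020, exact p = 0.0317). This p missed 0.05 without any one of WT replicates 2, 4 and 5 or can4-/- replicate 3 (0.0635 to 0.0794, exact permutation tests), and edgeR with the panel as scaling did not call it (adjusted p = 0.362). stmn2b, at -0.14 (SE 0.12, exact p = 0.262), and inaa, at -0.39 (SE 0.22, exact p = 0.135), did not pass the exact test.

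A further pair of genes fell more than the panel. tuba1c stood at -0.38 (SE 0.059, exact p = 0.00794), with no overlap between genotypes. mapta stood at -0.30 (SE 0.11, exact p = 0.0238), with overlap. Panel genes with like falls with TMM were atp1a3a (log2 fold change -1.38, as for tuba1c) and syt1a (-1.29, as for mapta). Set against elavl3 alone, mapta was at -0.13 and did not pass (exact p = 0.111), and without WT replicate 1 and can4-/- replicate 2 together it was at -0.27 (exact p = 0.0857).

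**Figure D4:**
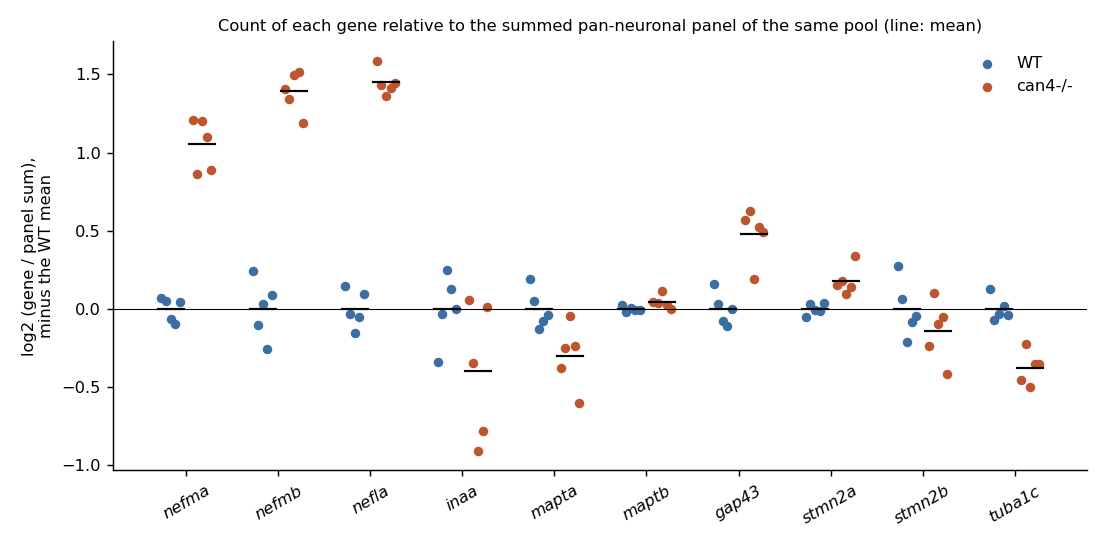
Log2 ratio of each gene's raw count to the summed pan-neuronal panel of the same pool, minus the WT mean, for 5 WT and 5 can4-/- pools (points) with the group mean (line). nefma, nefmb and nefla lie about 1.05 to 1.45 above WT, maptb lies near 0, and tuba1c lies 0.38 below.

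Most markers of early-born neurons and nearly all markers of later-born neurons were called lower. Of 41 genes that mark early-born sensory, motor and hindbrain neurons of fish embryos, 4 were higher, 29 lower and 8 did not pass, with a median log2 fold change of -0.69. Of 59 genes that mark neurons of the retina, tectum, cerebellum and forebrain, 0 were higher and 57 lower in edgeR, 2 did not pass, and the median was -1.38. For the pan-neuronal panel 1 of 29 (zgc:65851) was higher, 27 lower and 1 did not pass, with a median of -1.09. Over all tested genes 36.3% were called higher and 36.9% lower. The list counts are a description, and the difference between the lists was not tested.

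Among the early-born markers, calca, a neuropeptide gene of sensory neurons, rose from 184 ± 26.7 to 335 ± 21.98 normalized counts (SD, n = 5; log2 fold change 0.86, SE 0.099). The sensory ATP receptor gene p2rx3a stood at 0.62 (SE 0.084) and the heat and capsaicin receptor gene trpv1 at 0.60 (SE 0.10). The fourth, runx1, stood at 1.77 (SE 0.17) and is a transcription factor gene of blood cells as well as of sensory neurons. The largest falls with at least 100 normalized counts were in pou4f2, a transcription factor gene that retinal ganglion cells also use, at -3.06 (SE 0.18), and isl1, a LIM homeobox gene, at -1.76 (SE 0.091). pou4f3, with fewer counts, stood at -2.55 (SE 0.21). Among the later-born markers, slc17a7a, a vesicular glutamate transporter gene, stood at -4.70 (SE 0.23), and neurod2, a transcription factor gene, at -4.02 (SE 0.22). On the same scale nefla and nefmb were higher than 76.5% and 73.8% of all tested genes.

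**Figure D5:**
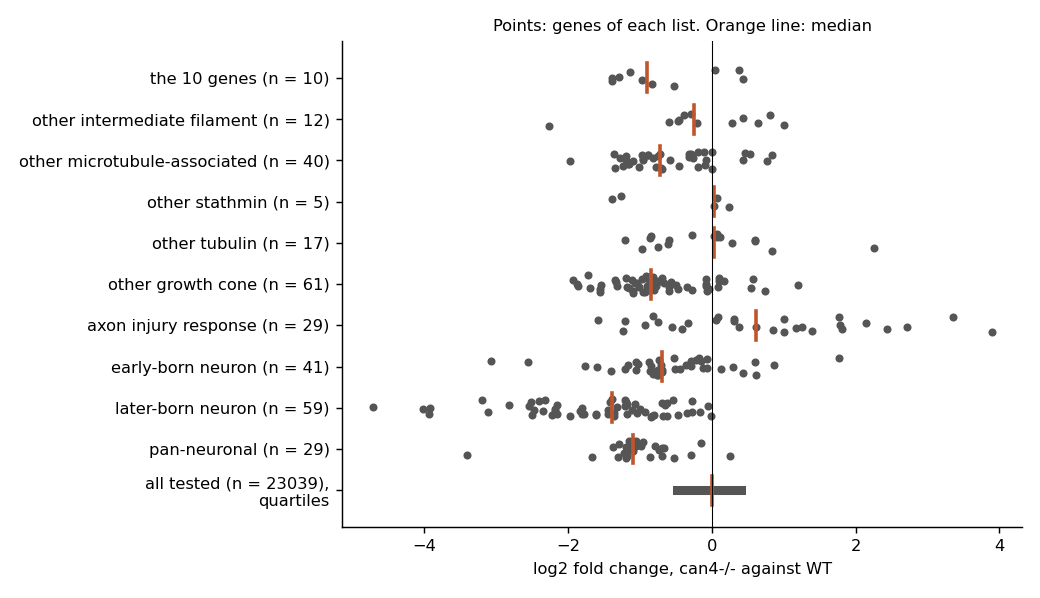
Log2 fold change in can4-/- against WT for the 10 genes and for lists of related genes and neuron markers. Points are genes, the orange line is the median, and the bar at the bottom spans the quartiles of all 23039 tested genes. The medians run from -1.38 for later-born neuron genes to 0.61 for genes of the axon injury response.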

How the data were processed

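Alignment was by STAR 2.7.0f to GRCz11, per the submitters' notes and the methods. The authors deposited unnormalized whole-number counts for each gene in 10 libraries, along with Ensembl release 96 gene names and positions. The libraries are total RNA, with rRNA removed and strand kept. No source used here gives the counting program or how it treated strand. The authors' DESeq2 comparison (fold changes and p-values) and their normalized and rlog values were not used.

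From the deposited counts, genes were kept by filterByExpr (minimum count of 10, minimum total of 15), scaled by TMM and fitted with genotype as the only term in edgeR 4.0.16 (R 4.3.3), with Benjamini-Hochberg adjustment over 23039 genes. The standard error is the log2 fold change divided by the square root of F, and the 95% interval uses 8 degrees of freedom. Ratios used raw counts with 0.5 added to each gene. The panel has 29 Ensembl genes for 28 symbols. On simulated counts (22887 genes) changes of 1.5-fold were recovered for 77.6% of 67 genes, 2-fold for 88.1% of 67 and 4-fold for 100% of 66, and 11 unchanged genes were called. In that simulation 22687 genes were unchanged and as many rose as fell, whereas 73.2% of tested genes were called in the real data. The simulated rates check the code and do not carry over to the real comparison.

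The pools come from separate larvae, so each counted as 1 replicate. All 20 pairs within a genotype differed beyond sampling noise (chi-square of 4.79 to 27.4 per degree of freedom). Separate libraries of the same RNA could differ so too, so these values do not show that pools are independent. The methods do not say how many clutches the larvae came from. Members and lists were chosen with earlier results of these data known. Named genes were the 10 members, a fixed set of related genes and, per list, up to 2 increases and 2 decreases, the largest at an adjusted p under 0.05 with at least 100 normalized counts. nes, rpl17, trpv1, runx1 and pou4f3 were named after their values had been seen. Alternatives were DESeq2 1.42.0, limma voom (limma 3.58.1), RLE factors, library totals, other filters (none, or 50 counts or more in each library of either genotype), a replicate block and leaving out pools. No sequence was used here.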

Additional observations from a re-analysis of the deposited data

Results flagged for a closer look

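Of 30 groups of 5 pools examined (the 10 genes, 3 paralog ratios, the panel and top2a in each genotype), 2 held a pool far from the others, both for top2a, and chance alone gives about 1 in 20. WT replicate 1 had 9082 normalized counts of top2a, against 8498 to 8646 in the other WT pools. can4-/- replicate 2 had 1358, against 635 to 688 in the other can4-/- pools. No pool of the 10 axon genes stood apart by this measure. Without these 2 pools the log2 fold changes of nefla, nefmb and nefma were 0.47, 0.44 and 0.10, and those of inaa and tuba1c were -1.49 and -1.40.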

How the results depend on the processing

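The 9 calls among the 10 genes (2 higher, 7 lower) were made with DESeq2, limma voom, RLE factors, library totals, both other filters, the replicate block and without each pool, and nefma passed in none of these. With library totals the values of nefla and nefmb were 0.26 and 0.21, nefma turned to -0.13, and over all genes 5919 were higher and 10997 lower, where TMM gave 8356 and 8505. With them 0 stathmin genes and 0 panel genes were called higher, against 1 each with TMM (edgeR). The replicate numbers do not pair the pools. Same-numbered pools deviated with correlations of -0.02 to 0.03, 0 of 5 WT pools correlated best with their own number, and the block gave 8179 genes higher and 8344 lower. An exact sign-flip test within replicate numbers cannot go below p = 0.0625 and cannot move a mean difference, so it says nothing of stability. By construction its differences are those of the report, for nefma to nefmb (-0.34), mapta to maptb (-0.35), and the panel ratios of nefma (1.05), nefmb (1.39), nefla (1.45), mapta (-0.30, exact sign-flip p = 0.125), maptb (0.044), gap43 (0.48), stmn2a (0.18) and tuba1c (-0.38). Leaving out single pools moved the ratio of stmn2a to stmn2b between 0.21 and 0.38 and the panel ratio of maptb between 0.027 and 0.055. Without WT replicate 1 and can4-/- replicate 2 the panel ratios of mapta and maptb were -0.27 (exact p = 0.0857) and 0.052 (exact p = 0.0571), and against elavl3 alone mapta was at -0.13. In edgeR with the panel as scaling, chosen after seeing the data, inaa passed at -0.38 (adjusted p = 0.0491) and maptb at 0.045 did not (adjusted p = 0.362). The causes of these changes were not tested. Counts of inaa (71 to 114 per can4-/- pool) and nefla were the lowest of the 10 genes.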

Other observations

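Genes that fish or rodents switch on after axon injury were called in both directions in can4-/- larvae. In edgeR 17 of 29 were higher, 9 lower and 3 did not pass, where 36.3% of all tested genes were higher and 36.9% lower. Their median log2 value was 0.61, against 0.00 over all tested genes. The feedback inhibitors of cytokine signaling socs3a and socs3b rose most, by 3.89 (SE 0.14) and 3.36 (SE 0.063) on the log2 scale. ascl1a, a proneural transcription factor gene, and klf7a, a transcription factor gene of growing neurons, fell by 1.23 (SE 0.095) and 0.93 (SE 0.057). gap43, which regrowing axons also use, fell by 0.52. Many of these genes are used outside neurons, and most macrophage markers were called higher in the same pools (7 higher and 1 lower of 10). Their part in this result was not tested.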
